A study of Mus musculus with 8 samples.

Results

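Cytosolic ribosomal protein genes were followed in SV-LECs before and after TGFβ1. A row of the count table was a member if its symbol was Rpl or Rps and a number, with or without a closing a or x, or was Rplp0, Rplp1, Rplp2 or Rpsa. This name rule used no measured value and took 74 of the 55471 rows, 44 for proteins of the large (60S) subunit and 30 for proteins of the small (40S) subunit. SV-LECs are a mouse lymphatic endothelial cell line, made from mesenteric adventitial tissue and immortalized with SV40. The svLEC_ctrl cells were untreated, and the svLEC_tgfb1 cells received 10 ng/ml TGFβ1 for 72 h. Each group had 4 libraries, described as technical replicates of this single line, so every p-value below covers technical variation only.

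The cytosolic ribosome translates the messages of the nucleus, and each subunit joins ribosomal RNA with a fixed set of proteins. Most of these proteins are made in step with each other, since they are built into the ribosome in equal numbers. Their messages start with a run of pyrimidines, the TOP motif, through which mTOR signalling sets how fast they are translated. They are abundant in dividing cells, and several of them, among them Rplp0, Rpl13a and Rpl19, are in wide use as reference genes for qPCR. A reference is meant to have the same level in all samples, since each target is divided by it.

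RefSeq promoter windows on GRCm38.p6, with 250 bases before and 50 bases after a start, were at hand for 54 members, in 64 windows. The letters CTTTC, a pyrimidine run of the kind found at TOP starts, lay within 25 bases of the start on the gene's own strand in 28.1% of the members' windows and 6.75% of all 32851 windows. With both strands searched, the shares were 32.8% and 12.5%. The letters CCGGAAG, a core bound by ETS factors, stood anywhere in the 300 bases on either strand in 37.5% of the members' windows and 8.86% of all windows. The sequences around the start are shown for members at the ends and the middle of the range of fold changes, and for a pair that differed most between libraries of a group. Each has 25 bases before and 25 bases after the start, 5′ to 3′ on the gene's strand, with CTTTC in capitals.

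Rpl19 (chr11:98026685-98026734, plus strand): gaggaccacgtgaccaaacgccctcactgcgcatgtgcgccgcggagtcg
Rps28 (chr17:33824538-33824587, minus strand): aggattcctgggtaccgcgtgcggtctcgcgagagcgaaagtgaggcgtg
Rps19 (chr7:24884567-24884616, plus strand): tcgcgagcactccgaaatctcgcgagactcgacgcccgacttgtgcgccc
Rplp0 (chr5:115559442-115559491, plus strand): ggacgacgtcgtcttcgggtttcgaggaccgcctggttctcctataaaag
Rpl4 (chr9:64173362-64173411, plus strand): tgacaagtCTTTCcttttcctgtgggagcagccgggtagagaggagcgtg
Rpl5 (chr5:107900503-107900552, plus strand): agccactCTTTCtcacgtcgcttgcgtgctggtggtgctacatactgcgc
Rps4x (chrX:102189367-102189416, minus strand): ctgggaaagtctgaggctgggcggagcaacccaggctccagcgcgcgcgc
Rplp2 (chr7:141447626-141447675, plus strand): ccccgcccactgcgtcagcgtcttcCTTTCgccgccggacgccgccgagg
Rpl27a (chr7:109519170-109519219, plus strand): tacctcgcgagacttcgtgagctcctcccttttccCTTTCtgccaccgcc

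Of the members tested, 14 of the 18 with CTTTC near a start fell after TGFβ1, with a median log2 fold change of -0.35. Of those with a window but without these letters, 29 of 35 fell, with a median of -0.29. By the same rule, an FDR under 0.05, 62 of all 73 members tested were lower, or 84.9%. Among all 13818 genes tested the share was 38.0%. The letters are a description of the window, and no match says only that they are not in it.

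The 8 libraries held between 18952504 and 26386941 counts. Reads were assigned to genes by the authors, and a stretch of 75 bases that 2 genes share cannot be assigned by its sequence alone. In the GENCODE M21 transcripts a median of 48.5% of a member's stretches were shared with other genes, mostly processed pseudogenes, with a range from 0 for Rps3 to 98.5% for Rps27. Levels of members with many shared stretches are therefore uncertain, and how shared reads were handled is not given in the sources used here. The labelled cell type was checked with markers: of 8 lymphatic endothelial genes, Pdpn, Flt4 and Nrp2 had a mean of at least 1 CPM (counts scaled by the normalized library size) and Prox1 and Lyve1 were close to 0. Of 8 endothelial genes only Eng and Kdr reached 1 CPM, Pecam1 and Cdh5 were close to 0, and Tie1 and Erg were at 0 in all libraries. The summed level of these 8 was 70.2 to 78.2 CPM in untreated and 162 to 170 CPM in treated libraries. The 10 fibroblast and mural genes summed to 3471 to 4819 CPM in untreated and 6594 to 7688 CPM in treated libraries, and 7 of them reached 1 CPM. None of 6 blood cell genes reached 1 CPM, and the 6 epithelial genes summed to between 39.2 and 48.5 CPM. The part of these markers' changes in the results below was not tested.

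The members as a group took a smaller share of the counts after TGFβ1. In the untreated libraries 2.37%, 2.35%, 2.40% and 2.46% of all counts fell on the 74 members. In the treated libraries the shares were 1.81%, 1.83%, 1.86% and 1.85%. Every treated library was below every untreated library, and the mean share was 23.3% lower, from 2.39% ± 0.0498 to 1.84% ± 0.0224 (SD, n = 4). The large subunit went from 1.42% to 1.09% and the small subunit from 0.973% to 0.752%. In bulk RNA, less ribosomal protein message per cell and more of other messages in the same total cannot be told apart.

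Most members fell by a small amount, and few rose. Of the 74 members, 73 passed the filter on low counts, and 62 of these were lower after TGFβ1 at an FDR under 0.05 by edgeR's likelihood ratio test. Among all 13818 genes tested, 38.0% were lower by the same rule. The 3 members that were higher were Rps10, Rps28 and Rpl19, against a share of 37.6% higher among all genes. In 58 members every treated library was below every untreated library, against 35.1% of all genes tested, and in 2 every treated library was above, against 34.7%. The remaining 8 passed in neither direction: Rplp1, Rplp2, Rpl9, Rpl27a, Rpl38, Rps13, Rps19 and Rps21. With total counts alone, 68 members were lower, since all of these but Rpl27a and Rps19 then passed as lower, with an FDR of 0.0306 for Rps13 and 0.0497 for Rps21.

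The shifts were small and kept close together. The median log2 fold change of members was -0.31, a level 19.5% lower, and the quartiles were -0.39 and -0.20. The SD over members was 0.24, and 0.17 over the 72 without Rps10, a gene of few counts. Over all genes tested the median was -0.01 and the SD 0.98. A log2 fold change within 0.5 of 0 was seen in 65 of 73 members, or 89.0%, and in 60.0% of all genes. The share was 90.9% for mitochondrial ribosomal proteins and 97.3% for proteasome subunits, both described below, so such small shifts were not particular to the members. The members that fell ranged from -0.61 to -0.09.

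**Figure D1:**
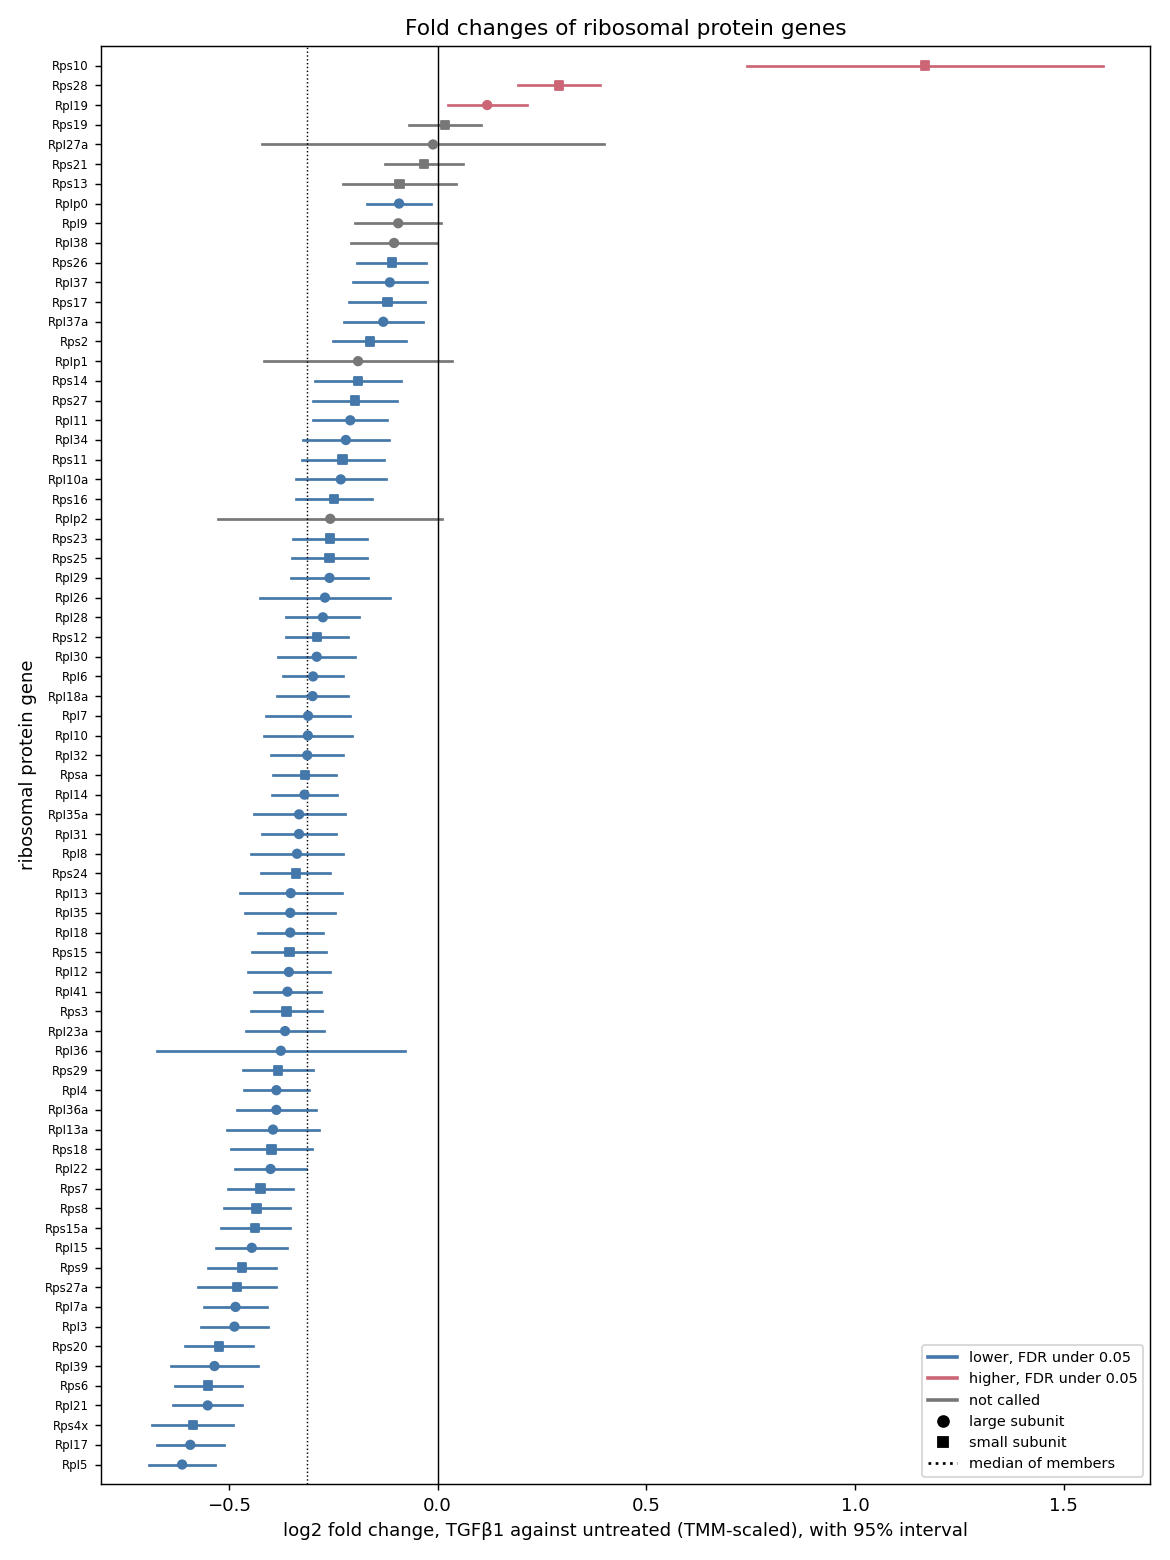
Log2 fold change (TGFβ1 against untreated, TMM-scaled) of 72 of the 73 tested ribosomal protein genes, Rps10 included, on the horizontal axis, with its 95% interval as a line, circles for the large and squares for the small subunit, and the median of all 73, -0.31, as a dotted line. Points for 3 genes are higher (Rps10, Rps28 and Rpl19), 8 were not called, and the rest are lower.

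Other abundant genes were more evenly divided. Of the 2655 genes with a mean of at least 100 CPM, 41.6% were lower and 43.4% were higher, and the 2592 of them that are no members had a median log2 fold change of 0.02 and an SD of 0.65. Of 89 other genes at that level with a transcript under 900 bases, 29 were lower and 35 higher, with a median of -0.02. Mitochondrial ribosomal proteins, which serve the separate ribosome of mitochondria, were lower in 38 and higher in 17 of 77, with a median of -0.14 and an SD of 0.31. Proteasome subunits, another complex of fixed makeup, were lower in 12 and higher in 11 of 37, with a median of -0.03 and an SD of 0.23. The SD of the members was close to that of the proteasome with Rps10 and lower without it, at 0.17, and their median lay lower. These are descriptions of lists, and the difference between them was not tested.

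**Figure D2:**
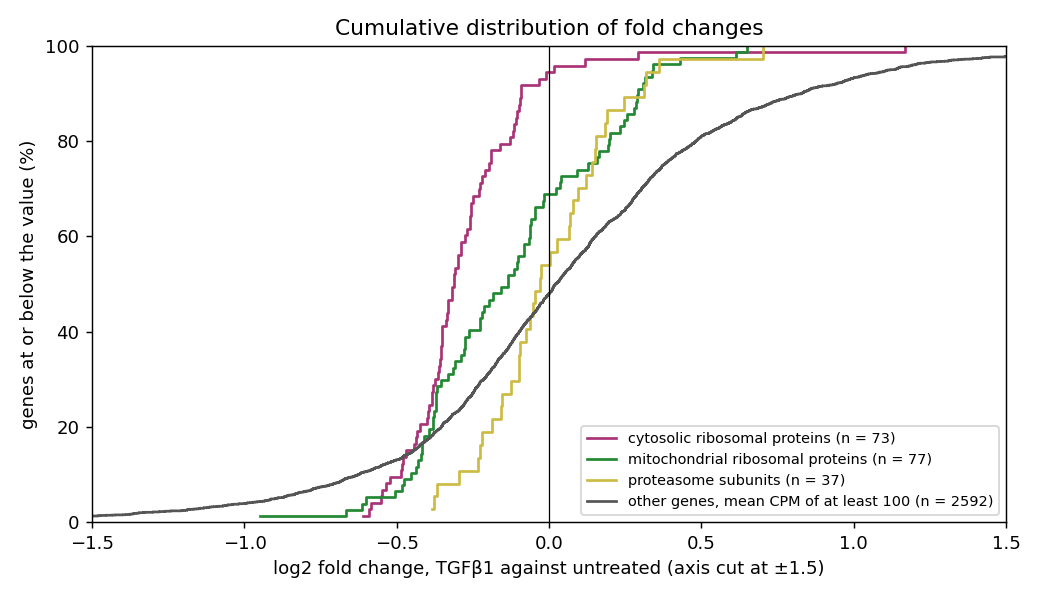
Percent of genes (vertical axis) at or below a log2 fold change (horizontal axis, cut at 1.5 on each side) for the 73 cytosolic ribosomal proteins, 77 mitochondrial ribosomal proteins, 37 proteasome subunits and 2592 other genes with a mean of at least 100 CPM. The curve of the cytosolic ribosomal proteins lies mostly left of 0, with a median of -0.31, while the medians of the other 3 sets lie between -0.14 and 0.02.

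Members of both subunits fell. In the large subunit 37 of 43 tested members were lower and 1 higher, with a median of -0.32. In the small subunit 25 of 30 were lower and 2 higher, with a median of -0.27. The medians were also close for members with few and with many shared stretches. The 9 members with under 10% shared stretches had a median of -0.36, with 8 lower. The 30 members from 10% to under 50% had a median of -0.29 and 26 lower, and the 34 with 50% or more had a median of -0.32 and 28 lower. All 3 members that were higher were in this last set. Across the 72 members without Rps10, Spearman's rho of the log2 fold change was -0.06 with the shared percentage, 0.18 with GC content and -0.26 with transcript length. These members share libraries, so the rho values are descriptions. Among other genes of at least 10 CPM the median log2 fold change rose with GC content. It was -0.11 at 40 to under 45% GC, -0.05 at 45 to under 50%, -4.84e-05 at 50 to under 55% and 0.05 at 55 to under 62%. In the same order of bins, the members had medians of -0.57 (2 members), -0.34 (21), -0.30 (34) and -0.32 (15), with no steady rise from 45% GC on.

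The largest falls were those of Rpl5, Rpl17 and Rps4x. Rpl5 carries the 5S ribosomal RNA into the large subunit and, with Rpl11, can bind Mdm2 when ribosome assembly fails. It had 547, 566, 564 and 594 CPM in the untreated and 373, 384, 365 and 364 CPM in the treated libraries. The groups were far apart, and the log2 fold change was -0.61 ± 0.04 (SE) with an FDR of 2.82e-50. Rpl17, which lines the exit tunnel of the large subunit, had 497, 512, 521 and 546 CPM untreated and 348, 351, 337 and 341 CPM treated. Its log2 fold change was -0.59 ± 0.04, again with no overlap. Rps4x, the X-linked copy of a protein of the small subunit, went from 485, 469, 493 and 521 CPM to 330, 352, 311 and 317 CPM, a log2 fold change of -0.59 ± 0.05. These 3 belong to a group of 7 members with a log2 fold change under -0.5, the others being Rpl21, Rps6, Rpl39 and Rps20. Rps6 is the ribosomal substrate of the S6 kinases, and Rpl39 and Rps20 had under 10% shared stretches.

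Rps28 and Rpl19 went the other way. Rps28, a small protein near the exit of the message channel of the small subunit, had 91.4, 83.5, 91.1 and 87.9 CPM in the untreated and 111, 113, 106 and 103 CPM in the treated libraries. All treated libraries were above all untreated ones, with a log2 fold change of 0.29 ± 0.05 and an FDR of 1.21e-08. Rpl19, a large subunit protein that also forms a bridge to the small subunit, had 285, 280, 303 and 320 CPM untreated and 313, 332, 329 and 315 CPM treated. Here the groups overlapped, since untreated replicate 4 lay above treated replicates 1 and 4. The log2 fold change was 0.12 ± 0.05 with an FDR of 0.0197. The call rests on the scaling: with total counts alone the value was 0.05 with an FDR of 0.340, and with upper-quartile factors 0.10 with an FDR of 0.0558. Rpl19 shared 69.9% of its stretches with 14 genes and Rps28 71.1% with 5 genes, more than the members' median.

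Rps10 and Rpl24 were hardly counted. Rps10 had between 12 and 53 counts per library, or 1.20, 0.939, 0.568 and 0.609 CPM untreated and 1.89, 1.70, 1.82 and 2.06 CPM treated. Its log2 fold change of 1.17 ± 0.22 is the largest of the members and rests on these few counts, with 90.1% of its stretches shared. Rpl24 had 4 to 15 counts per library and was not tested, with 80.9% shared. Both genes had the fewest counts of all members, and the part of shared reads in this was not tested.

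Among the members closest to no change were Rps19, Rps21 and Rpl27a. Rps19, a small subunit protein in which human variants cause Diamond-Blackfan anaemia, had 266, 250, 267 and 283 CPM untreated and 270, 266, 275 and 268 CPM treated. The groups lay within each other, the log2 fold change was 0.02, and its 95% interval ran from -0.07 to 0.10. Rps21 had 183, 178, 183 and 182 CPM untreated and 174, 165, 180 and 191 CPM treated, with a log2 fold change of -0.03 and an interval from -0.13 to 0.06. For both, the interval does not reach the members' median of -0.31. For Rpl27a, with a log2 fold change of -0.01, the interval from -0.42 to 0.40 includes that median.

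Rpl27a, Rplp1, Rplp2 and Rpl36 differed between libraries of the same group far more than the other members, and Rps13 deviated in the same libraries by less. This set, chosen after the values were seen as the 5 with the widest range inside both groups, held these 5. Rplp1 and Rplp2 form the stalk of the large subunit, which recruits translation factors. Rpl27a had 132, 109, 80.2 and 70.2 CPM in the untreated and 74.3, 68.3, 111 and 134 CPM in the treated libraries. Untreated replicates 1 and 2 and treated replicates 3 and 4 were high, and the groups overlapped fully. Rplp2 had 340, 286, 253 and 224 CPM untreated and 202, 178, 267 and 274 CPM treated, with the same libraries high.

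The 5 genes moved together. Their range inside a group was 0.25 to 0.91 log2 units in the untreated and 0.30 to 0.97 in the treated libraries. The other 67 members with at least 100 counts had a median range of 0.13 and 0.09 and a highest range of 0.26 and 0.27, so that Rps13, with 0.25 and 0.30, lay close to them. Between pairs of the 5, the correlation of the deviations over the 8 libraries was 0.90 to 0.99, a description of 10 pairs from shared libraries. Rpl36 was the only 1 of the 5 to pass the test, with a log2 fold change of -0.38 ± 0.15, an FDR of 0.0184 and overlapping groups, and its FDR was 0.106 by DESeq2. It also lost the call without replicate 1 or 2 of either group (FDR up to 0.0680). Rplp1 passed as lower without replicate 4 of either group, and Rplp2 without untreated replicate 4 or treated replicate 3 or 4, at FDRs down to 0.0138 and 0.0153. Genes of high GC content deviated in the same libraries: over 1021 other genes with 58% GC or more, the median deviation was 0.11 in untreated replicate 1, -0.10 in untreated replicate 4, -0.09 in treated replicate 2 and 0.07 in treated replicate 4. For the 5 members these medians were 0.27, -0.28, -0.35 and 0.27. Over 6435 other genes with 45 to under 58% GC, the medians in these libraries were -0.00595, 0.000902, 0.0156 and -0.00873. Of the 5 members, only Rpl36, at 60.8% GC, had 58% or more, and the others had 48.5% to 57.3%. The part of GC content in the spread of the 5 was not tested. Without these 5 members, 61 of 68 members were lower and the median was -0.32.

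**Figure D3:**
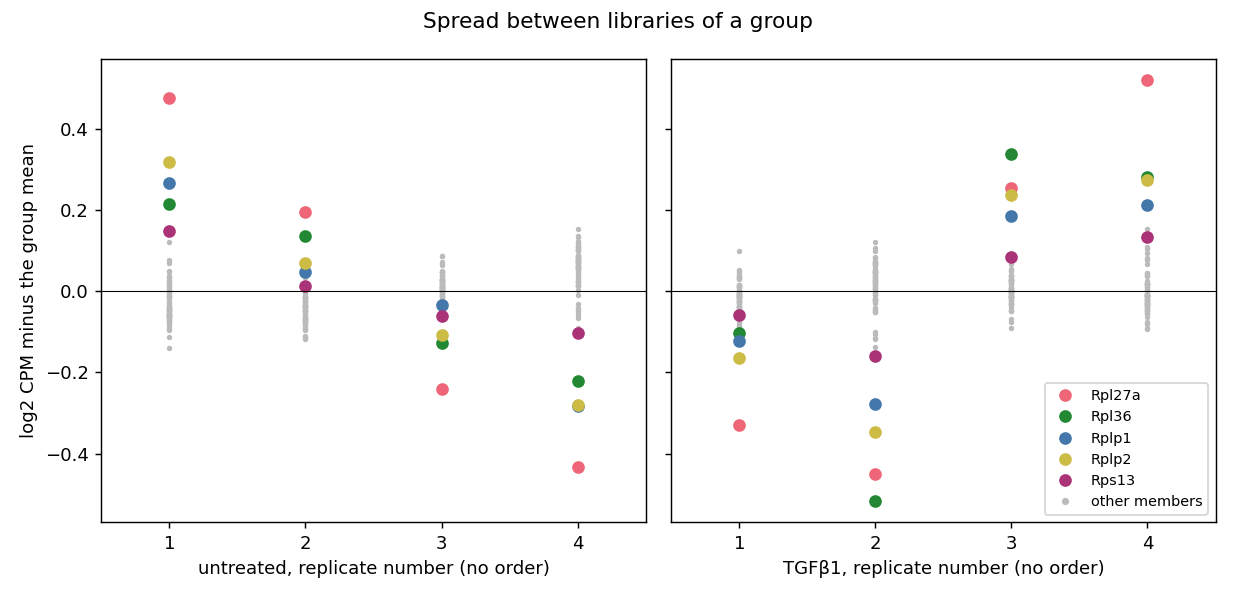
Log2 CPM minus the group mean (vertical axis) for each library (horizontal axis, replicate number, which has no order), untreated on the left and TGFβ1-treated on the right, with 5 members in colour and the other 67 in grey. Rpl27a, Rpl36, Rplp1, Rplp2 and Rps13 are high in untreated replicate 1 and in treated replicates 3 and 4, and low in untreated replicate 4 and treated replicate 2.

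Levels can be compared between genes only per length, and here the shared stretches limit that too. Over the 73 tested members the median was 392 CPM per kb of transcript in untreated and 315 CPM per kb in treated libraries. The highest untreated levels were 1379 CPM per kb for Rplp1, 1061 for Rpl4 and 994 for Rps15, a protein in the head of the small subunit. The lowest were 1.67 CPM per kb for Rps10, 25.4 for Rpl26 and 59.7 for Rpl13a. Rps15 fell by 0.36 and Rpl26 by 0.27 on the log2 scale. The order of levels was much the same in both groups, with a Spearman's rho of 0.97 over these genes.

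Several ribosomal proteins lie outside the name rule. Rpl23 and Rpl27 are listed under symbols joined with others, and their log2 fold changes were -0.41 and -0.12, both lower by the test. Among those with other names, Rps3a1 (-0.41), Rack1 (-0.25), a scaffold on the small subunit, and Fau (-0.19), which yields Rps30, were lower. Of 9 paralogs 5 were tested: Rps27l was higher at 0.42, Rpl22l1 lower at -0.18, and Rpl7l1, Rpl36al and Rps27rt passed in neither direction. The 320 rows of pseudogenes whose symbol joins a ribosomal protein name with -ps were counted too. They held 1.97% ± 0.0524 as many counts as the members in untreated and 1.98% ± 0.0312 in treated libraries (SD, n = 4), so the ratio was nearly equal in both groups. Pseudogenes under other names are not in this count, such as Gm8226, which shares 71.1% of the stretches of Rpl7a, and Gm10443, with 69.0% of those of Rps28.

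Other messages with TOP starts mostly fell, and the genes that control them went in both directions. Of 21 translation factors and other TOP messages, 15 were lower and 2 higher, with a median of -0.28. Eef1a1, which brings aminoacyl-tRNA to the ribosome, was at -0.37, and Npm1, a nucleolar chaperone, at -0.42. Pabpc1, the poly(A) binding protein, was higher at 0.21, and Eif3l at 0.12. Of 15 genes of the mTOR pathway and of TOP binding, 7 were higher and 2 lower, or 46.7% and 13.3%, beside 37.6% and 38.0% of all genes tested. Tsc2, a brake on mTOR, was at 0.68 and Rictor at 0.58, both higher. Eif4ebp1, a translation inhibitor under mTOR, was lower at -0.63, and Eif4e, the cap binding protein it holds, at -0.61. Larp1, which binds TOP messages, had a log2 fold change of -0.03 and did not pass.

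As qPCR references the members differed from each other. Of 9 in common use, 7 were lower after TGFβ1, Rpl19 was higher and Rps13 did not pass. The share lower was 77.8%, beside 84.9% of all members tested and 38.0% of all genes tested. Rplp0, the base of the stalk, had 689, 657, 701 and 702 CPM untreated and 640, 634, 643 and 661 CPM treated. Untreated replicate 2 lay below treated replicate 4, and the log2 fold change was -0.09 ± 0.04 with an FDR of 0.0236. When each library was left out in turn, Rplp0 passed in 3 of 8 fits and Rpl19 in 4 of 8. The call of Rplp0 was lost without untreated replicate 3 or 4 or treated replicate 1, 2 or 3 (FDR up to 0.0824). That of Rpl19 was lost without untreated replicate 1 or 2 or treated replicate 2 or 3 (FDR up to 0.102). Rpl13a had 61.8, 57.7, 63.6 and 67.0 CPM untreated and 47.0, 49.0, 48.5 and 45.8 CPM treated, a log2 fold change of -0.39 ± 0.06. Rps18 went from 288, 314, 331 and 314 CPM to 223, 245, 240 and 239 CPM, a log2 fold change of -0.40 ± 0.05. In both, no library of the groups overlapped. Rpl4 was at -0.39, Rps29 at -0.38, Rpl32 at -0.31 and Rpl30 at -0.29, all without overlap, and Rps13 was at -0.09 with an interval from -0.23 to 0.04.

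**Figure D4:**
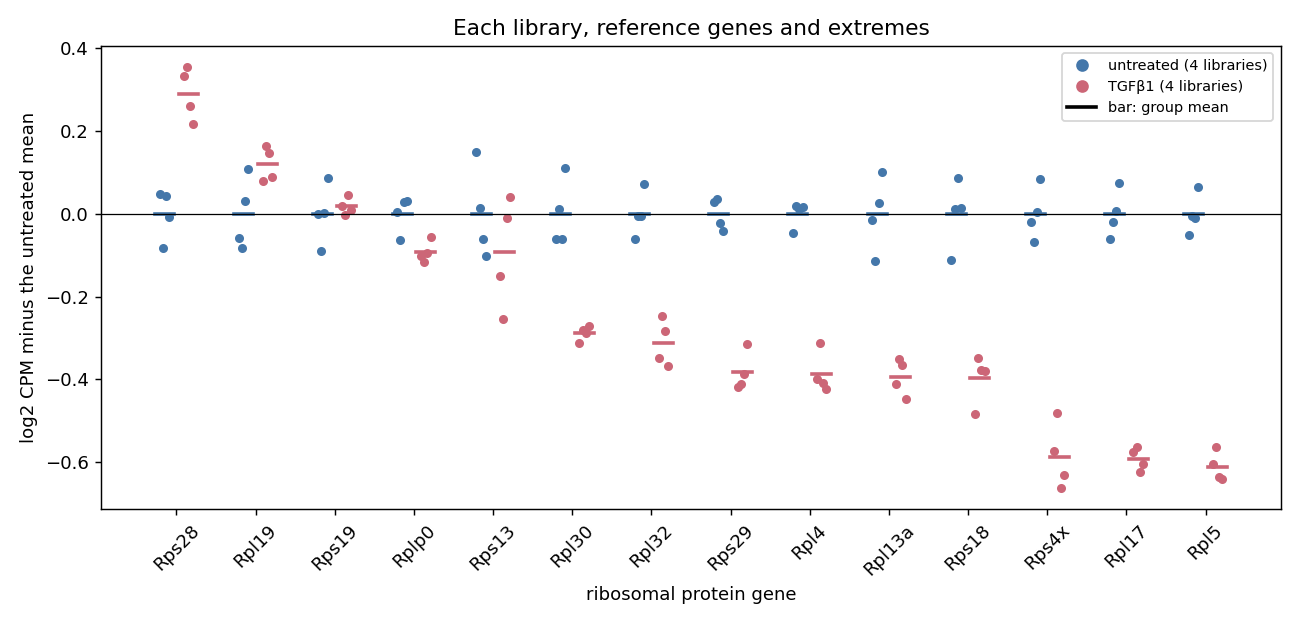
Log2 CPM minus the untreated mean (vertical axis) in each of 4 untreated and 4 TGFβ1-treated libraries for 14 ribosomal protein genes, with group means as bars. The treated libraries of Rps28 lie above the untreated ones, those of Rpl19, Rps19, Rplp0 and Rps13 overlap them, and those of the other 9 genes lie below.

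By their spread over all 8 libraries, members ranked from 2 (Rps19) to 85 (Rpl27a) of 88 candidates with at least 100 counts per library. Rank 1, the steadiest, was Actb, which is no member. The SD of log2 CPM was 0.04 for Actb, 0.05 for Rps19, 0.06 for Rplp0 and 0.06 for Rps21. Rpl19 was at 0.09, Rpl13a and Rps18 at 0.22, Rpl5 at 0.33 and Rpl27a at 0.41. Of 16 other reference genes, 8 were higher and 7 lower after TGFβ1, from -0.90 for Tubb5 to 1.00 for Polr2a, and Gapdh was at -0.52. This ranking takes the scaling as given.

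Ratios between members inside a library need no scaling. The log2 ratio of Rpl19 to another member was higher after TGFβ1 for 70 of 71 members, with a median rise of 0.44 and a range from -0.17 (Rps28) to 0.73 (Rpl5). This count restates a rank: of these 71 members, only Rps28 had a higher log2 fold change than Rpl19. In 64 of the 71 ratios the groups did not overlap, and this share is not given here for other members in the place of Rpl19. To Rplp0 the ratio rose by 0.21, and to Rpl32 it was -0.55 ± 0.05 untreated and -0.12 ± 0.02 treated (SD, n = 4). To Rpl13a it was 2.25 ± 0.03 and 2.76 ± 0.02, and to Rps18 -0.07 ± 0.09 and 0.45 ± 0.04. By the mean SD of the log2 ratio to all other members, Rpl14 was steadiest at 0.10 and Rpl19 was number 67 of 72 at 0.25. A gene that fell along with the other members scores as steady by this measure. Rpl14 itself had a log2 fold change of -0.32, with no overlap of the groups. Rpl32 was number 9 at 0.11. Rps19, close to no change by TMM, was number 66 at 0.20.

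The choice of member changes how large a target's rise appears. The study measured cytokines of these cells by qPCR, and an assay named l19 is among its mouse assays. Whether it reads Rpl19, and whether it served as the reference, is not stated in the sources used here. Il7, a cytokine that keeps lymphocytes alive, had log2 ratios to Rpl19 of -7.24, -7.14, -7.37 and -7.04 untreated and -5.64, -5.35, -5.75 and -5.90 treated. The difference was 1.54, a 2.90-fold rise. Il15, which supports natural killer and memory T cells, rose by 1.53 in its log2 ratio to Rpl19, or 2.88-fold. The mean untreated log2 ratio was -7.20 for Il7 and -6.97 for Il15, where Rpl19 had 5914 to 7458 counts per untreated library. Both rises therefore rest on few untreated counts of the target. Il6 rose by 1.55, Cxcl16 by 1.69 and Cx3cl1 by 3.33. In all 5 the treated libraries were above the untreated ones, and the exact two-sided permutation test gave p = 0.0286 for each (adjusted p = 0.0286 over 5 ratios), the smallest value that 4 against 4 libraries allow. The study picked these 5 genes because they rose in the same libraries, so the p-values are no independent evidence of a rise.

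With each of 72 members as the reference in turn, the change of the log2 ratio of Il7 ran from 1.36 with Rps28 to 2.27 with Rpl5, or from 2.57-fold to 4.81-fold, with a median of 1.97. Rpl19 gave 1.54, the next lowest after Rps28. For Il15 the range was 1.36 to 2.26 and for Cx3cl1 3.16 to 4.07. The 16 other reference genes gave a wider range for Il7, from 0.65 with Polr2a to 2.55 with Tubb5. The direction was the same with every reference used.

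**Figure D5:**
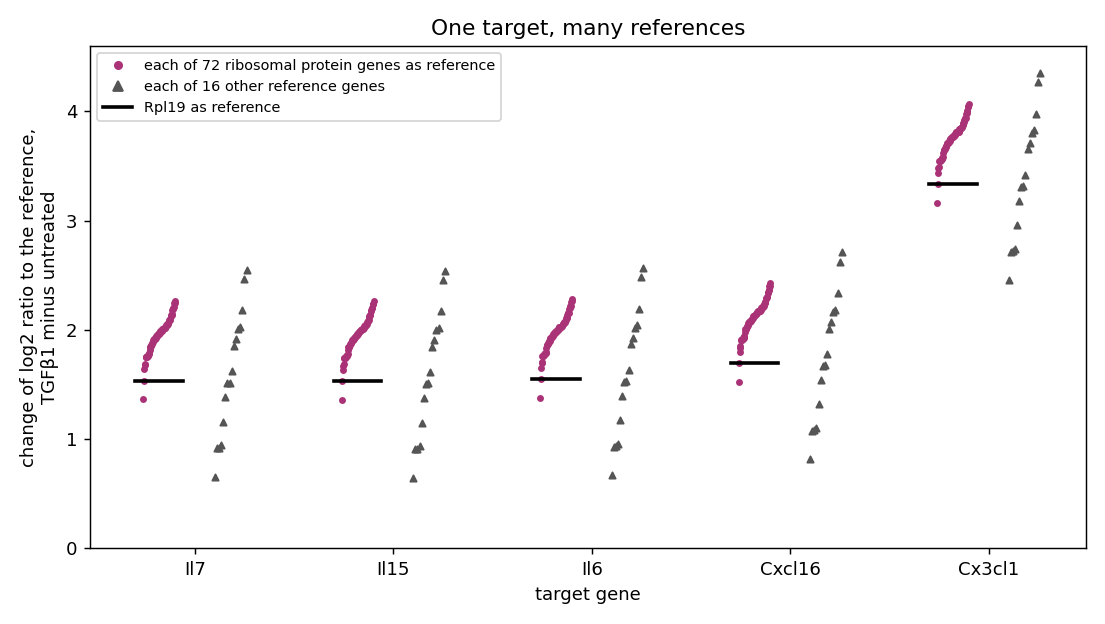
Change of the log2 ratio of a target to its reference after TGFβ1 (vertical axis) for 5 targets (horizontal axis), with a point for each of 72 ribosomal protein genes and a triangle for each of 16 other reference genes. For Il7 the members give 1.36 to 2.27 and the other genes 0.65 to 2.55, and the bar marks the 1.54 given by Rpl19.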

How the data were processed

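RNA of untreated and TGFβ1-treated SV-LECs was sequenced by the authors from a stranded poly(A) library kit. The submitters' processing notes name bcl2fastq 2.20.0.422, STAR 2.7.3a, featureCounts 1.5.1 and the build GRCm38/mm10, and the values deposited by the authors are raw counts per gene. Groups were compared with edgeR 4.0.16 under R 4.3.3 (filterByExpr, TMM, glmFit, glmLRT, Benjamini-Hochberg FDR over all genes tested), after a check on simulated counts. CPM use TMM-scaled library sizes, and intervals are the log2 fold change and its SE at 95%. The quasi-likelihood test and DESeq2 1.42.0 were alternatives. Ratios were tested with scipy by exact permutation. Positions, transcripts and shared stretches came from GENCODE M21. Named were 9 members in use as references, the 3 largest changes in each direction, the 3 nearest 0, the extremes of level, members of few counts, and list genes. Some genes are not reported here. Members and lists were chosen with earlier results of these data known. No library repeated another of its group (chi-square per degree of freedom 2.37 to 7.84). Same-numbered libraries did not deviate together (correlations -0.27 to -0.04), so numbers were not used as pairs.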

Additional observations from a re-analysis of the deposited data

Results flagged for a closer look

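Of 50 groups of 4 libraries checked for a library far from the others, 1 stood out, where chance marks about 1 in 20. It was Rpl4, which had 1579 CPM in untreated replicate 1, while the other 3 untreated libraries had 1643 to 1652 CPM. The log2 fold change of Rpl4 was -0.39 with all libraries and between -0.41 and -0.37 with each left out.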

How the results depend on the processing

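The number of members lower after TGFβ1 was 62 and stayed between 56 (FDR of 0.01) and 68 (total counts alone) under the settings with all libraries, and 2 or 3 were higher. With each library left out in turn, 59 to 64 were lower, 2 to 3 higher, the median was -0.33 to -0.30 and the SD 0.23 to 0.26. Of the 62, 60 were lower under all 9 other settings with all libraries at an FDR of 0.05, and 56 were lower at that FDR with each library left out. The median moved to -0.38 with total counts alone. Chosen after seeing the data, the 9 members with under 10% shared stretches gave 8 lower and a median of -0.36, by construction a smaller set, and the SD without Rps10 was 0.17. With a replicate block 62 were lower and 3 higher, with a median of -0.31 and an SD of 0.24, and no named call changed. The sign changed for members near 0: Rps19 was -0.050 with total counts alone and -0.0038 with upper-quartile factors, and over the libraries left out it ran from -0.014 to 0.045, Rps21 from -0.070 to 0.0017, and Rpl27a from -0.21 to 0.16. The log2 ratios to Rpl19 moved by less than their SD with 0.5 counts added. With each library left out, the change was 1.43 to 1.61 for Il7 and 1.45 to 1.62 for Il15. Depth limited Rps10 and Rpl24, and 3 counts equal 0.113 to 0.162 CPM.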
